A study of Mus musculus with 10 samples.

Results

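The Cadm and nectin genes encode a family of cell adhesion molecules, and 8 of the 55471 genes counted in this study of cultured mouse microglia are described here: Cadm1, Cadm2, Cadm3, Cadm4, Crtam, Nectin1, Nectin2 and Nectin3. Cadm1 was selected on its lower level in the libraries labelled knockdown, so its values in that contrast are a description and carry no test. The 7 relatives were chosen by family name. Microglia, the resident macrophages of the brain, had been prepared as primary cells from wild-type (WT) mice and kept in DMEM with serum and antibiotics. In 5 libraries the cells had received control gapmers, and in 5 libraries gapmers directed against 3222401L13Rik, a long noncoding RNA. A gapmer is a short antisense oligonucleotide with a DNA core, and RNase H cleaves RNA paired to it. Total RNA was made into libraries with a strand-marking kit for small inputs, and reads were counted per gene. Whether the replicates are separate cultures or animals is not stated in the labels, and p-values therefore measure only the spread between these libraries, which may be technical.

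Cadm and nectin proteins cross the membrane once, present immunoglobulin domains outside the cell and bind partners on the neighbouring cell, either their own kind or another family member. Inside the cell, a short motif at the C-terminal end holds PDZ-domain scaffolds: the nectins hold afadin, which links them to actin beside the cadherins, and the Cadm proteins hold scaffolds such as CASK, syntenin and the MPP proteins, with protein 4.1 relatives binding closer to the membrane. Cadm proteins are best known at synapses, along axons and in epithelia, and Cadm1 also on mast cells. Crtam is a receptor of activated T and natural killer cells that binds Cadm1, and Nectin2 is a ligand for lymphocyte receptors and for virus entry.

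The end of each coding sequence is shown because it encodes the motif that ties each protein to its scaffolds, and because it shows how close the relatives are at the base level. The sequences are from GENCODE M21 transcripts on GRCm38, each the last 45 coding bases of the transcript with the longest coding sequence, stop codon included, 5′ to 3′ on the gene's own strand. Capitals mark the last 12 bases before the stop, the codons of the C-terminal motif.
Cadm1: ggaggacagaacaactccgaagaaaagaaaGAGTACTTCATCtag
Cadm2: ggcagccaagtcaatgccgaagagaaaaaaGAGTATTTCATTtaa
Cadm3: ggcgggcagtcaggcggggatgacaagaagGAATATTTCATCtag
Cadm4: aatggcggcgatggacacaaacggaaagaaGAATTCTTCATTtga
Crtam: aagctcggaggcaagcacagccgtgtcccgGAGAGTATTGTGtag
Nectin1: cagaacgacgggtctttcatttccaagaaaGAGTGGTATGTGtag
Nectin2: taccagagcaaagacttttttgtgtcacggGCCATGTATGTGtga
Nectin3: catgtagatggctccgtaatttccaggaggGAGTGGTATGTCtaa
Set base by base against Cadm1, Cadm2 shared 32 of the 45 bases, Cadm3 30, Cadm4 20, Nectin1 18, Nectin3 17, Crtam 12 and Nectin2 10. Nectin1 and Nectin3 shared 31 of 45 with each other. The longest run of identical bases between protein-coding transcripts of any pair was 23, between Cadm1 and Cadm4, so the 8 genes are not near-identical copies.

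On GRCm38, Cadm1 lies at chr9:47530173-47857637 on the plus strand, and its tail above at chr9:47850346-47850390. Crtam (chr9:40969691-41004628, minus strand) and Nectin1 (chr9:43743984-43807461, plus strand) are on the same chromosome. Cadm2 (chr16:66655421-67620908) and Nectin3 (chr16:46387706-46498525) are both on the minus strand of chromosome 16. Cadm4 (chr7:24482023-24504539, plus strand) and Nectin2 (chr7:19716644-19750483, minus strand) are on chromosome 7, and Cadm3 (chr1:173333258-173367695, minus strand) is on chromosome 1. Exons of 3 members overlap those of another gene. Cadm3 shares 361 bases with Ackr1 on the same strand, and Ackr1 held 45 reads over all libraries against 249 for Cadm3. Cadm2 shares 256 bases with 1700010K23Rik and Nectin2 shares 135 with Gm20512, both on the opposite strand, and these neighbours held 1 and 6 reads.

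Libraries held 4321316 to 5639040 reads in the control group and 5593627 to 6636082 in the group labelled knockdown. In raw reads the targeted RNA did not separate the groups (exact two-sided permutation test, p = 0.659, n = 5 each). 3222401L13Rik had 30, 29, 28, 33 and 34 reads in control libraries and 22, 38, 24, 33 and 29 in the others. These reads were not scaled to library totals, which were higher on average in labelled knockdown (p = 0.0159 by the same exact permutation test). The test on raw reads therefore cannot show whether the target's level fell, and the treated group is named here by its label. The libraries also differed in a low signal over genes that microglia are not known to use. Scaled to exon kilobases and to 1000000 reads, the reads over 1135 olfactory receptor genes came to 0.599 ± 0.147 in the control libraries and to 0.257 ± 0.0674 in those labelled knockdown (SD, n = 5 each), 2.33 times more in control, with no overlap (p = 0.00794 by the same exact permutation test, the lowest p possible with 5 against 5). Multiplied by a gene's exon length, this density gives the background reads predicted for it, and their percentage of the reads counted is called its background share below. Because density and group go together in every library, they cannot be told apart, and each result below is given with its background share. The 12 microglia markers (Aif1, Csf1r, Cx3cr1 and others) summed to 3352 to 3998 CPM (counts per 1000000 reads, scaled with TMM factors) in control libraries and 4046 to 4657 in the others, with a predicted background of 0.346%, and none was at 0. The weakest of them were Tmem119, with means of 2.84 and 2.72 CPM and a background share of 34.6%, and P2ry12, with 11.4 and 14.3 CPM (control first). T and natural killer cell markers, the cells in which Crtam is best known, summed to 16.8 to 22.9 and 6.30 to 11.2 CPM with 57.1% predicted background. Neuron markers, the cells of Cadm2 and Cadm3, summed to 51.1 to 73.6 and 32.4 to 45 CPM with 46.2%, and astrocyte markers to 170.0 to 189 and 161 to 197 CPM with 11.9%. Oligodendrocyte lineage markers summed to 96.4 to 109 and 97.4 to 106 CPM with 18.2%, and fibroblast, mural and endothelial markers to 39.5 to 56.1 and 22.5 to 35.7 CPM with 46.7%. Group differences in these sums also depend on the scaling. With TMM, 11 of the 12 microglia markers were called higher (edgeR, adjusted p under 0.05), as were 22.9% of all tested genes. Scaled on genes with a background share under 5%, 0 of the 12 were, against 1.62% of all tested genes. In bulk RNA, fewer cells of a type and less RNA per cell cannot be told apart.

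Cadm1 was the dominant member of the family in these cells. Per kilobase of exon, the scale on which genes can be compared, its level was 52.5 ± 4.05 CPM in the control libraries, and the next member, Nectin2, stood at 6.67 ± 0.784 (SD, n = 5 each), 7.87 times lower. Cadm4 followed at 2.09 ± 0.350, Nectin1 at 1.34 ± 0.347, Crtam at 1.245 ± 0.188, Cadm3 at 0.856 ± 0.159, Nectin3 at 0.752 ± 0.117 and Cadm2 at 0.310 ± 0.0942. Cadm1, Nectin2 and Cadm4 were separated from one another in every control library. From Cadm4 down to Nectin3, each member's libraries overlapped those of the next, so their order is not resolved, and Cadm2 lay below all of Nectin3's values. In the libraries labelled knockdown, Cadm1 was at 39.8 ± 2.29 and Nectin2 at 7.81 ± 0.174 CPM per kilobase (SD, n = 5 each), 5.10 times apart, and the first 3 places were the same.

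The olfactory receptor genes give the floor under these levels. Their median was 0.478 CPM per kilobase in control libraries and 0.217 in those labelled knockdown, with 95th percentiles of 1.33 and 0.676. No olfactory receptor gene reached Cadm1 in either group, 1 exceeded Nectin2, and 8 in control and 1 in labelled knockdown exceeded Cadm4. Nectin1 was exceeded by 57 of 1135 in each group, Crtam by 67 and 69, Cadm3 by 204 and 214, Nectin3 by 276 and 77, and Cadm2 by 817 and 591. The reads of Cadm2 were under its predicted background in all 10 libraries, so its transcript was not detectable above background. The other 7 members were above prediction in all 10.

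**Figure D1:**
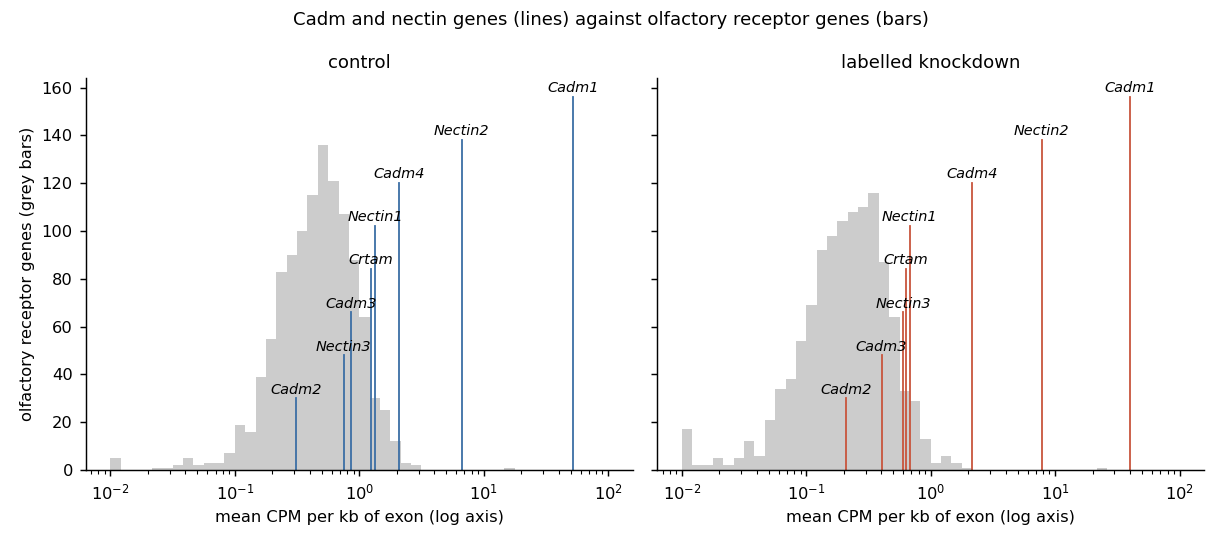
Mean level of each member (coloured lines, CPM per kilobase of exon, log axis) over the distribution of 1135 olfactory receptor genes (grey bars, number of genes on the vertical axis) in the 5 control and the 5 knockdown-labelled libraries; line heights only separate the names. Cadm1 at 52.5 and 39.8 and Nectin2 at 6.67 and 7.81 stand clear of most grey bars, and Cadm2 at 0.310 and 0.208 lies among them.

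Cadm1, a homophilic and heterophilic adhesion molecule and the ligand of Crtam, was lower in every library labelled knockdown than in any control library. In CPM, the control libraries had 566, 487, 550.2, 535 and 602, and those labelled knockdown had 376, 427.5, 415, 439.8 and 419. The means were 547.9 ± 42.3 and 415 ± 23.9 CPM (SD, n = 5 each). Labelled knockdown was at 0.758 times the control level, or -0.40 in log2 units (SE 0.059). Its reads, 2342 to 3371 in control and 1990 to 2486 in labelled knockdown per library, were far more than those of any other member. Its background share was 0.898%, and the reads left after subtracting the prediction were 2911 ± 383 and 2358 ± 216 (SD, n = 5 each).

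Most genes as free of background as Cadm1 moved the other way, so its fall stands larger against them than against all genes. Of the 853 tested genes with a background share under 1%, 746 were called higher and 4 lower at an adjusted p under 0.05 (edgeR quasi-likelihood test), and the median log2 fold change was 0.28. In that set 4 genes had a lower log2 fold change than Cadm1. Of the 217 genes with a mean CPM at or above that of Cadm1, 208 were called higher and 2 lower, and Gm10800 alone had a lower value. Scaled on the 4728 genes with a background share under 5%, which moves the median of those genes from 0.24 to 0.00 and that of all genes from -0.10 to -0.34, Cadm1's log2 fold change was -0.64 (SE 0.035). With predicted reads subtracted as well it was -0.67 (SE 0.035). On that first scaling 27 of those 4728 genes had a lower value than Cadm1. Each of these sets includes Cadm1 itself, so their counts of calls are not of comparison genes alone. Cadm1 was picked for its fall, and its place in the sets is a description. Within sequencing lanes, as recorded with the deposited files, Cadm1 had 534 and 406 CPM in lane 7 (replicates 1 to 3 of each group) and 569 and 429 CPM in lane 8 (replicates 4 and 5).

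**Figure D2:**
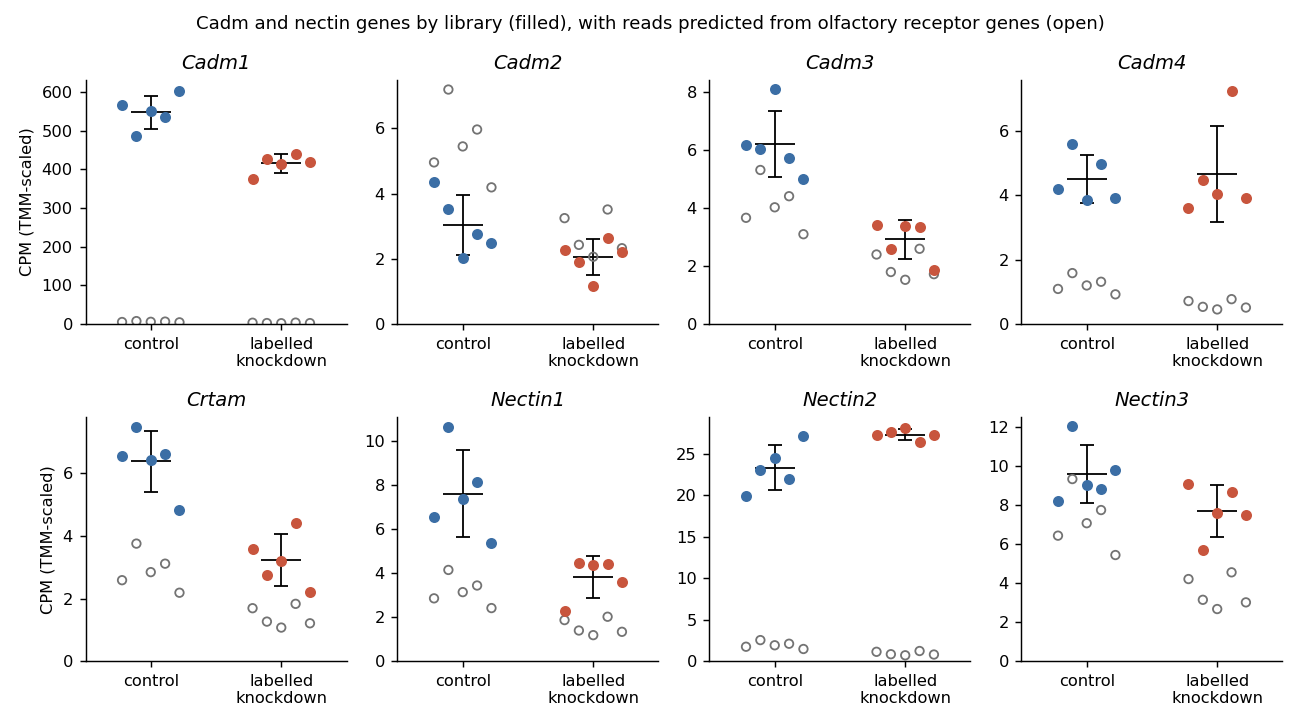
CPM of each member in each of the 10 libraries (filled points, replicates 1 to 5 from left to right; bars show mean and SD, n = 5) with the CPM predicted from olfactory receptor genes (open points); vertical axes differ between panels. Cadm1, Cadm3, Crtam and Nectin1 have no overlap between groups, but only Cadm1 among these lies far above its open points.

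The relatives were not all called in Cadm1's direction. All 7 passed the filter on low counts and were tested in the same edgeR fit over 19263 genes. Of the 7, 3 were called lower (Cadm3, Crtam and Nectin1), 1 was called higher (Nectin2) and 3 did not pass the test (Cadm2, Cadm4 and Nectin3), with a median log2 fold change of -0.57. Over all tested genes 31.3% were called lower and 22.9% higher, with a median of -0.10. The background shares of the 3 that fell were 41.6% to 66.6%. Of the 3775 tested genes with a share of 40% to 70%, 2683 were called lower and 1 higher, with a median log2 fold change of -0.89.

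Of the Cadm paralogs, Cadm3, a synaptic and axonal member that pairs with other Cadm proteins in neurons, was lower in every labelled knockdown library. It had 6.19, 6.03, 8.10, 5.71 and 5.00 CPM in control and 3.40, 2.58, 3.38, 3.36 and 1.87 CPM in labelled knockdown, which were 28 to 44 and 11 to 20 reads. The groups did not overlap, and the log2 fold change was -1.09 (SE 0.259, edgeR adjusted p = 0.00042). Of the 8 neuron markers 7 were tested, 4 were called lower and 0 higher, and the median log2 fold change was -0.75 at a median share of 45.4%. Fibroblast, mural and endothelial markers were also lower, in 5 of 5 tested of 8, with a median of -0.82 at a median share of 28.3%. Astrocyte markers had 2 called higher and 2 lower of 8 tested (median share 14.4%), and oligodendrocyte lineage markers 0 higher and 2 lower of 7 tested (49.5%). Over all tested genes 22.9% were called higher and 31.3% lower. Among all genes with a share of 20% to 40%, 1913 of 3886 were lower (median -0.59), and at 40% to 70% it was 2683 of 3775. The part of other cell types in the result was not tested. Its own background share was 66.6%, and 11.4 ± 7.14 reads in control and 5.22 ± 3.63 in labelled knockdown lay above prediction (SD, n = 5 each). With background subtracted the log2 fold change was -1.48 (SE 0.616) and the call was lost (adjusted p = 0.109), as it was with background density as a covariate, a fit added after the data were seen (-0.76, SE 0.481, adjusted p = 0.893).

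Cadm4, the member known from the contact of Schwann cells with axons and from epithelia, showed no difference that passed the test. It had 4.19, 5.61, 3.86, 4.98 and 3.93 CPM in control and 3.59, 4.48, 4.05, 7.25 and 3.92 CPM in labelled knockdown. The ranges overlapped, and the single high library was labelled knockdown replicate 4. The background share of Cadm4 was 19.5%. The log2 fold change was 0.05 with a 95% interval of -0.45 to 0.56 (adjusted p = 0.875), an interval that includes Cadm1's -0.40, and it was -0.20 on the scaling by genes of low share. Without replicate 4 of the labelled knockdown it was -0.15 (adjusted p = 0.664), and with the density covariate 0.84 (adjusted p = 0.839). Cadm2, a neuronal member, had 2.02 to 4.37 CPM in control and 1.18 to 2.65 CPM in labelled knockdown, 7 to 24 reads in all libraries, and overlapping groups. Its log2 fold change was -0.57 (SE 0.329, adjusted p = 0.131) with reads below the prediction throughout (background share 161%), and it could not be fitted after subtraction.

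Crtam, the lymphocyte receptor for Cadm1, had few reads and was lower in every labelled knockdown library. It had 6.56, 7.48, 6.44, 6.64 and 4.82 CPM in control and 3.59, 2.76, 3.21, 4.42 and 2.21 CPM in labelled knockdown. The lowest control library was just above the highest of the others. The log2 fold change was -0.98 (SE 0.252, adjusted p = 0.00101). Of its reads 44.8% were predicted background, 45.3% in control and 43.8% in labelled knockdown, so reads and prediction fell by similar factors. The reads above prediction were 18.6 ± 2.58 and 10.3 ± 3.41 (SD, n = 5 each). The call held after subtraction (log2 fold change -1.20, SE 0.389, edgeR adjusted p = 0.0375). Subtraction takes the prediction as exact, although 67 of 1135 olfactory receptor genes in control and 69 in labelled knockdown exceeded Crtam. A fall of Crtam beyond background was therefore not tested. With the density covariate the log2 fold change was -0.18 (SE 0.463) and the call was lost (adjusted p = 0.988). Of the 8 T and natural killer cell markers, Nkg7 alone was at 0 in some library, and 4 were tested. All 4 were called lower, with a median log2 fold change of -1.04 at a median background share of 45.1%. Over all tested genes 31.3% were called lower, and at shares of 40% to 70% it was 2683 of 3775. The part of T and natural killer cells in Crtam's result was not tested.

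Nectin1, a herpes virus entry receptor that pairs with Nectin3 across cell contacts, was also lower in every labelled knockdown library. It had 6.56, 10.6, 7.36, 8.11 and 5.36 CPM in control and 2.27, 4.48, 4.39, 4.42 and 3.58 CPM in labelled knockdown. Control libraries spread widely, yet none reached down to the other group. Its background share was 41.6%, 42.2% in control and 40.4% in labelled knockdown, so reads and prediction fell by similar factors. Subtraction takes the prediction as exact, and a fall of Nectin1 beyond background was not tested. The log2 fold change was -0.98 (SE 0.239, edgeR adjusted p = 0.000593). After subtraction it was -1.22 (SE 0.384, adjusted p = 0.0321), resting on 23.2 ± 5.48 and 13.1 ± 6.68 reads above prediction (SD, n = 5 each). With the density covariate it was -0.41 (SE 0.44) and not called (adjusted p = 0.966).

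Nectin2, the second most abundant member per kilobase and a ligand of the lymphocyte receptors Cd226, Tigit and Pvrig, was the relative called higher. It had 19.9, 23.1, 24.5, 21.9 and 27.1 CPM in control and 27.2, 27.6, 28.0, 26.4 and 27.3 CPM in labelled knockdown. The knockdown-labelled libraries lay close together at the top of the control range, and control replicate 5 fell among them. The log2 fold change was 0.23 (SE 0.097, adjusted p = 0.0410), close to the median of 0.24 over the 4728 genes with a background share under 5%. Its own share was 5.70%. Scaled on those genes its log2 fold change was -0.02 (adjusted p = 0.899), so both its call and its direction depend on the scaling. Without control replicate 1, 2 or 4, or labelled knockdown replicate 3, the log2 fold change was 0.19, 0.23, 0.21 and 0.24, and the call was lost (adjusted p = 0.113, 0.0529, 0.0807 and 0.0557).

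Nectin3, the partner of Nectin1 in heterophilic contacts, had 8.20, 12.1, 9.02, 8.85 and 9.82 CPM in control and 9.08, 5.69, 7.60, 8.67 and 7.5 CPM in labelled knockdown. The groups overlapped, and the log2 fold change of -0.31 (SE 0.181, 95% interval -0.67 to 0.05) did not pass the test (adjusted p = 0.133). Its direction depended on the treatment of background, which was 75.1% of its reads in control and 45.7% in labelled knockdown. Scaled on the genes of low share it was called lower (log2 fold change -0.56, adjusted p = 0.0174), and with background subtracted its log2 fold change was 0.54 (SE 0.358, adjusted p = 0.336). The reads above prediction were 12.7 ± 7.05 in control and 23.8 ± 5.50 in labelled knockdown (SD, n = 5 each).

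Scaling on the genes of low background share, 5 of the 7 relatives were called lower (Cadm2, Cadm3, Crtam, Nectin1 and Nectin3) and 0 higher, where 44.6% of all tested genes were called lower and 1.62% higher. With predicted background also subtracted, 2 of the 6 relatives that could be fitted were called lower (Crtam and Nectin1) and 0 higher, against 11.1% and 0.756% of 19170 genes. The subtracted fit takes the predicted reads as exact, so it did not test for a fall beyond background. Across these scalings Cadm3, Crtam and Nectin1 stayed negative, as did Cadm1. The TMM fit over all tested genes had called 4418 genes higher and 6033 lower. With library totals alone it was 994 higher and 7653 lower, and 1685 and 7195 with upper-quartile scaling.

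**Figure D3:**
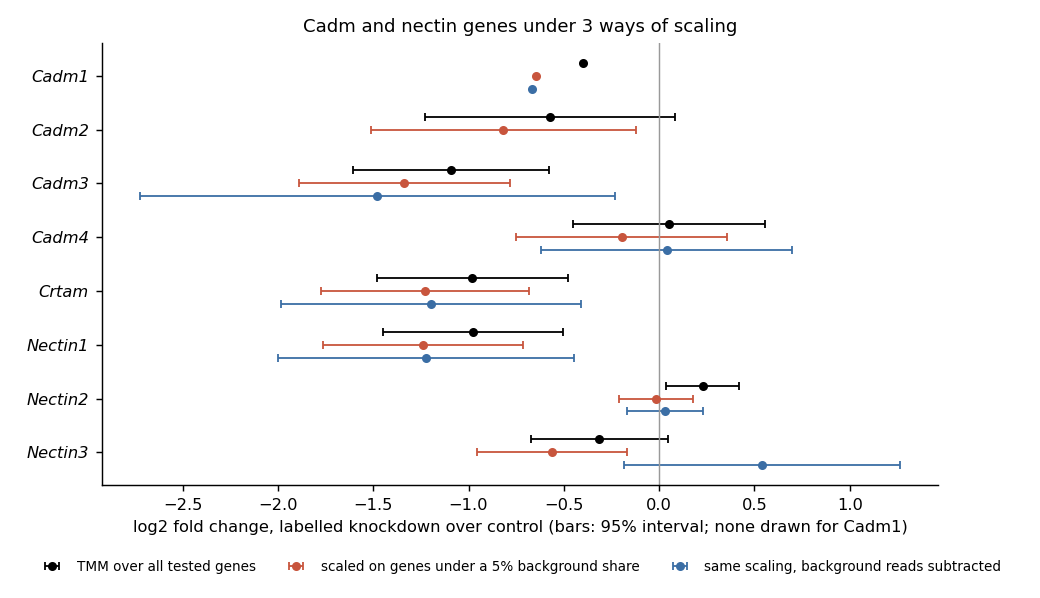
Log2 fold change of each member, labelled knockdown over control, with 95% intervals for the relatives (none for Cadm1, which was picked for its fall), for TMM over all tested genes (black), scaling on genes with a background share under 5% (red) and the same with predicted background reads subtracted (blue; not fitted for Cadm2). Cadm1 is at -0.40, -0.64 and -0.67, and Nectin3 moves from -0.31 and -0.56 to 0.54.

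The levels per lane carried the same picture for the genes called lower. Crtam had 6.83 and 3.19 CPM in lane 7 and 5.73 and 3.32 CPM in lane 8 (control first), Nectin1 8.17 and 3.71 CPM and 6.73 and 4.00 CPM, and Cadm3 6.77 and 3.12 CPM and 5.36 and 2.62 CPM. Cadm4 differed in direction between lanes, with 4.55 and 4.04 CPM in lane 7 and 4.45 and 5.59 CPM in lane 8. Nectin2 was higher in labelled knockdown in both lanes, with 22.5 and 27.6 CPM and 24.5 and 26.8 CPM. With the 4 libraries of lane 8 alone no relative was called, where 67 genes were called higher and 153 lower over all genes tested. With the 6 of lane 7 the counts were 3 lower and 1 higher as in all libraries, where 4135 genes were called higher and 5770 lower.

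**Figure D4:**
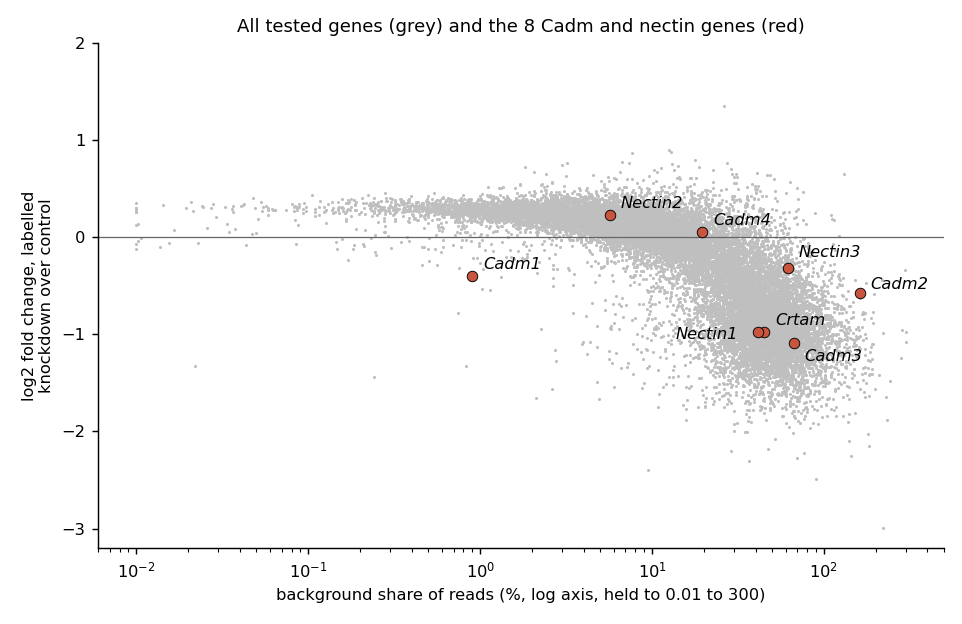
Log2 fold change against background share (log axis, percent) for all tested genes (grey) and the 8 members (red). Grey points bend downward as the share rises; Crtam, Nectin1 and Cadm3 lie inside that bend, and Cadm1, at 0.898% and -0.40, lies below nearly all genes of similar share.

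Across the 10 libraries, the Pearson correlation of log2 CPM with Cadm1 was 0.77 for Cadm3, 0.72 for Crtam and for Nectin1, 0.50 for Cadm2, 0.38 for Nectin3, -0.01 for Cadm4 and -0.61 for Nectin2. The points share their libraries, groups and background. With each group's mean removed, the values were -0.23 for Cadm3, -0.38 for Crtam, -0.11 for Nectin1, -0.13 for Cadm2, -0.51 for Nectin3, 0.03 for Cadm4 and 0.23 for Nectin2. The relatives called lower had only 11 to 51 reads per library. Counting noise at such depth can hide shared variation, so these values cannot show whether those relatives varied with Cadm1 within groups.

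Among 11313 tested genes with a proper symbol and a mean of at least 5 CPM, the 5 whose log2 CPM correlated most with Cadm1 over the 10 libraries were Bin2, Bptf, Evc2, Anks1 and Pde8b, and Nectin1, Nectin2 and Nectin3, the relatives with a mean that high, were not among them. Bin2, a BAR-domain protein of blood cells, had r = 0.97 over all libraries and 0.80 with group means removed, and went from 121.5 ± 13.7 to 83.6 ± 5.06 CPM (SD, n = 5 each; log2 fold change -0.54, background share 1.02%). Bptf, a subunit of the NURF chromatin remodeller, had r = 0.93 and 0.48, and went from 245 ± 11.5 to 195 ± 4.14 CPM (SD, n = 5 each; log2 fold change -0.33, share 2.65%). Evc2, Anks1 and Pde8b each had r = 0.92, with log2 fold changes of -0.46, -0.30 and -0.53. Evc2 and Pde8b had background shares of 17.9% and 19.3%. These genes were picked for their likeness to Cadm1, so their lower levels are a description.

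The cytoplasmic partners of Cadm proteins went in both directions. Of the 13, 6 were called higher, 3 lower and 4 did not pass the test, with a median log2 fold change of 0.06, where 22.9% of all tested genes were called higher and 31.3% lower with a median of -0.10. Levels were under 10 CPM for Mpp2, Mpp3 and Pick1 (Mpp2, Pick1 and Epb41l2 were named after their values were seen). Epb41l2, a protein 4.1 relative, had 539.8 ± 25.8 CPM in control and 648 ± 23.4 in labelled knockdown (SD, n = 5 each). Mpp1 rose by 0.38 on the log2 scale (SE 0.058, adjusted p = 1.2e-06), from 302 to 392 CPM, and Sdcbp (syntenin) by 0.37 (SE 0.059, adjusted p = 2.3e-06). Scaled on the genes of low share both stayed called, at 0.13 and 0.12. Tiam1, an activator of Rac, fell from 21 to 11.1 CPM (log2 fold change -0.93, SE 0.15, adjusted p = 8.7e-06, share 26.4%). It was at -1.18 on the low-share scaling and stayed called with background also subtracted (-1.17, adjusted p = 0.000545). Mpp3 fell by 1.05 on the log2 scale (SE 0.212, adjusted p = 6.3e-05) with a share of 55.6%. On the low-share scaling the list had 2 higher and 6 lower with a median of -0.18, where 1.62% of all tested genes were higher and 44.6% lower.

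The cytoplasmic partners of nectins also went in both directions. Of the 9, 4 were called higher, 4 lower and 1 did not pass, with a median of 0.18, against the same 22.9% and 31.3% of all tested genes. On the low-share scaling 1 was higher and 4 lower, with a median of -0.06, where 1.62% of all tested genes were higher and 44.6% lower. Rap1b, a small GTPase of adhesion, rose by 0.41 (SE 0.06, adjusted p = 4.5e-07), from 341 to 452.5 CPM, and by 0.16 on the low-share scaling. Afdn, which encodes afadin, had 32 ± 3.03 CPM in control and 25.1 ± 1.22 in labelled knockdown (SD, n = 5 each). Its log2 fold change was -0.35 (SE 0.092, adjusted p = 0.00132, share 14.9%). On the low-share scaling it was -0.60, and with background also subtracted -0.51 (adjusted p = 0.000787). Afadin fell outside the rule for naming genes and was named after its values were seen, as the protein that binds the nectin tail. Pard3, a polarity scaffold, fell by 0.90 on the log2 scale (adjusted p = 3.8e-05), with a share of 61.1%. On the low-share scaling its log2 fold change was -1.16. With background also subtracted it was -0.99, and Pard3 did not pass the test (adjusted p = 0.14). Rapgef1, a Rap activator, rose by 0.26 and was at 0.01 on the low-share scaling.

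Among the other receptors and ligands, the remaining nectin family genes did not pass the test: Nectin4 had 18 ± 1.87 and 19.2 ± 2.96 CPM, and Pvr 14 ± 1.17 and 15.5 ± 1.86 CPM (SD, n = 5 each, control first). Of the 4 lymphocyte receptors of nectins, Tigit and Cd96 were too low to test, and Cd226, with a background share of 97.3%, did not pass. Pvrig fell by 0.81 on the log2 scale (SE 0.355, adjusted p = 0.0472, share 19.9%) from 2.92 to 1.66 CPM. On the low-share scaling its log2 fold change was -1.06. With background also subtracted it was -1.04 without passing the test (adjusted p = 0.188). Of 12 classical cadherins, catenins and their actin linkers, 5 were called higher and 4 lower, with a median of -0.03. Over all tested genes 22.9% were called higher and 31.3% lower, with a median of -0.10. The 4 of smallest p, Actn1, Ctnnb1, Actn4 and Ctnna1, rose by 0.22 to 0.29 and lay between -0.03 and 0.04 on the low-share scaling. There 0 of the 12 were higher and 6 lower, against 1.62% and 44.6% of all tested genes. The sheddases and gamma-secretase, the enzymes that cut adhesion molecules including Cadm1 and nectins at the surface and in the membrane, had 2 of 7 tested genes higher, 0 lower and 5 not called, with a median of 0.13, beside the same 22.9% higher and 31.3% lower of all tested genes. On the low-share scaling 1 was higher and 1 lower, with a median of -0.11, beside 1.62% and 44.6% of all tested genes. Adam10 rose by 0.36 (SE 0.062, adjusted p = 5.3e-06), from 160.3 to 206 CPM, and Adam17 by 0.24 (SE 0.059, adjusted p = 0.000594), from 213 to 253 CPM. On the low-share scaling Adam10 stayed called at 0.12 and Adam17 was at 0.00. With background subtracted Adam10 did not pass (0.10, adjusted p = 0.107). Ncstn, which encodes nicastrin, had a log2 fold change of 0.15 and did not pass.

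**Figure D5:**
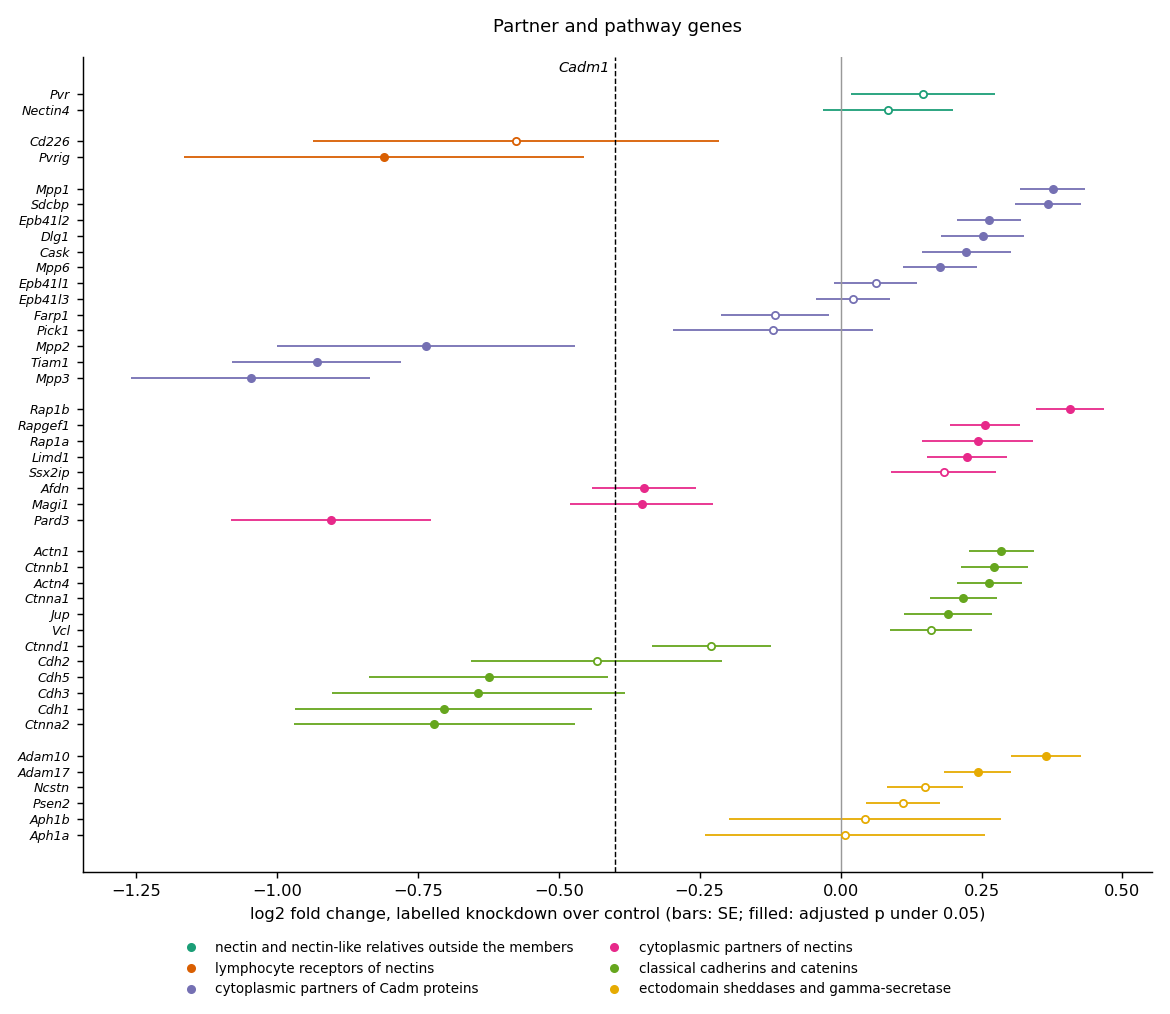
Log2 fold change, labelled knockdown over control, of the tested partner and pathway genes that are reported, with SE bars (filled points pass an adjusted p under 0.05 by edgeR; colours give the list) and Cadm1's -0.40 as the dashed line. Each list of cytoplasmic partners and the cadherins and catenins have filled points on both sides of 0, while the filled points of the sheddases, Adam10 and Adam17, are to the right.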

How the data were processed

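The authors deposited raw read counts per gene, 1 file for each library. Reads were demultiplexed with bcl2fastq and GRCm38 (mm10) was the build, per the submitters' processing notes. For the aligner, the counter, its strand setting and the annotation, the entry is "not given in the sources used here". Reads of genes that overlap on opposite strands therefore could not be told apart. Of 55471 genes, 55230 matched GENCODE M21, which gave names, exon lengths, coordinates and coding sequences, and the 241 unmatched held 0.0107% of reads. The 92 ERCC entries held 0 to 2 reads and were left out. Groups came from the labels. No 2 replicates agreed within counting noise.

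The counts were filtered with filterByExpr, scaled with TMM and tested with edgeR 4.0.16 (robust quasi-likelihood, group only, R 4.3.3), with Benjamini-Hochberg adjustment over 19263 genes at 0.05. The procedure was tested on simulated data. CPM used TMM-scaled library sizes, and exon length gave CPM per kilobase. Background density came from 1135 olfactory receptor genes. Genes with a share under 5% gave the low-share scaling. For the subtracted fit, predicted reads were taken off, held at 0 or above and rounded, and the scaling came from the same genes with a share under 5%.

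The members and lists were chosen with earlier results of these data known. The text names the 8 members, up to 4 tested genes with the smallest p per partner list, and the 5 genes that correlated most with Cadm1. Of the genes this rule gives, 2 are not reported here. Epb41l2, Mpp2, Pick1 and Afdn were named outside the rule. Alternatives included DESeq2 1.42.0, other scalings and filters, lane, the replicate number as a block, and each library left out. Background density as a covariate was added after the data were seen. Figures used Python 3.11.15 and matplotlib 3.10.9.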

Additional observations from a re-analysis of the deposited data

Results flagged for a closer look

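Among the 8 genes in each group, 1 library stood far from its group. Cadm4 had 7.25 CPM in labelled knockdown replicate 4, and the gap to the next library, at 4.48 CPM, was 0.758 of the group's range. Chance marks about 1 in 20 groups in this way, and 20 sets of 5 libraries were examined: the 8 genes, the read totals and the olfactory receptor density, each in both groups.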

How the results depend on the processing

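Cadm1 was lower in labelled knockdown under all 23 alternatives (log2 fold change -0.67 to -0.27), as was Nectin1 under 23 (-1.24 to -0.41), and Crtam and Cadm3 under the 22 that kept them (-1.23 to -0.18 and -1.48 to -0.76). Cadm1 was picked for its fall, so its direction under them is a description. The alternative at an adjusted p under 0.01 changes only the threshold and repeats the main fold changes. Nectin2 reversed to -0.017 with scaling on genes under a 5% background share. Counts of genes called higher and lower were 4418 and 6033. Genes higher came to 1685 with upper-quartile scaling, 994 with library totals, 2057 with a filter of at least 5 CPM in 5 libraries, 312 with the low-share scaling, 145 with background subtracted, 2 with background density as a covariate and 67 in lane 8 alone. Genes lower came to 2239 with the 5 CPM filter, 2129 with background subtracted, 28 with the covariate and 153 in lane 8, which has 4 libraries. Relatives called higher went from 1 to 0 under all of those settings and at an adjusted p under 0.01, and were 0 to 1 with each library left out. Relatives called lower went from 3 to 1 with the 5 CPM filter, 5 with the low-share scaling, and 0 with the covariate and in lane 8. Cadm3 and Crtam were not among the genes tested under the 5 CPM filter. The cause of the other changes was not tested. With replicate number as a replicate block the counts were 4405 and 5949 genes and 1 and 3 relatives. Deviations of same-numbered libraries correlated at -0.20 to 0.15, and only replicate 4 correlated best with its own number, so the samples share only a number. At 7 to 24 reads per library for Cadm2 and 11 to 44 for Cadm3, depth limits what can be resolved.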
